A study of Mus musculus with 15 samples.

Results

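Plasminogen activation and coagulation were followed in mouse embryonic fibroblasts (MEFs) through 8 genes, of 23462 named genes on the array. Activators of plasminogen were represented by *Plau* and *Plat*, the cell surface receptor by *Plaur*, the serpin family by *Serpine2*, *Serpinb2* and *Serpinf1*, and the start and the brake of coagulation by *F3* and *Thbd*. Members were chosen by name: every probe whose transcript in the array file belonged to 1 of these genes was kept, which gave 11 probes, all of them tested. *Serpinf1* had 3 probes and *Plau* had 2, and for a gene with several probes the brightest over all arrays stood for the gene.

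The MEFs were of an established line, labelled 3T3 and named Balb/c/3T3 clone A31 in the methods, so all groups shared a single cell line. A group of 3 arrays was untreated (CTRL). The others were treated by TNFα at 10 ng/ml, by TGFß1 at 5 ng/ml, by IL1β at 1 ng/ml, or by IL6 at 20 ng/ml given together with its soluble receptor sIL6Rα at 25 ng/ml (IL6/sIL6Rα), with 3 arrays each. Cells were stimulated for 24 h in the TNFα and TGFß1 arrays, while the time behind the IL1β and IL6/sIL6Rα arrays was not given in the sources used here. RNA came from whole cultures, so fewer cells expressing a gene and less of its RNA per cell cannot be told apart. The paper describes the replicates of the arrays it reports as independent experiments. The IL1β and IL6/sIL6Rα arrays are not among those. The labels do not say which arrays came from 1 culture experiment. The main fit therefore treats arrays as unpaired, and its q-values measure the spread between these arrays. A pairing by label number was fitted as an alternative.

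Each level below is the log2 of the processed signal minus the log2 of the 75th percentile of that array's signals, so 0 is the brightness at that percentile. Levels were compared between arrays and not between genes. A gene was called when the limma q-value, adjusted by Benjamini-Hochberg over 29334 tested probes, was below 0.05 and the fold-change was at least 1.5. The 75th percentile lay between 325 and 445 intensity units over the 15 arrays, between 48.3% and 54.9% of probes were well above background, and no probe was saturated. The arrays lay on 2 slides that both held every group. CTRL had 2 arrays on slide 1 and 1 on slide 2, while TNFα and TGFß1 each had 1 on slide 1 and 2 on slide 2. A difference of either from CTRL within a slide thus rests on 1 array on 1 of its sides. Within a group, pairs on the same slide correlated at r = 0.990 to 0.995 and pairs on different slides at 0.977 to 0.985, so each called difference of the 8 genes from CTRL is also given within each slide.

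Urokinase (*Plau*) and tissue plasminogen activator (*Plat*) cleave plasminogen to plasmin, a protease that dissolves fibrin and degrades extracellular matrix. Urokinase works while bound to its receptor *Plaur* on the cell surface. Serpins such as protease nexin (*Serpine2*) and plasminogen activator inhibitor type 2 (*Serpinb2*) trap these proteases. In coagulation, tissue factor (*F3*) on fibroblasts starts the cascade when it meets plasma factor VII, and thrombomodulin (*Thbd*) turns thrombin from a clotting enzyme into an activator of protein C.

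Promoter windows of 300 bases, 250 before and 50 after the annotated start, were read for the 5 members with an entry, from RefSeq on build GRCm38.p6. They were searched on both strands for 6 motifs. AP-1, the dimer of Fos and Jun family proteins, binds TGANTCA, and those 7 letters were in the windows of *Serpinb2*, *F3* and *Plaur*, 3 of the 5 genes. Over all 32851 promoter windows, 7.81% held them. The 3 windows are shown because they hold these letters and each of the 3 genes was called in at least 1 comparison with untreated cells. Capitals mark the AP-1 letters.
Serpinb2 promoter, chr1:107511173-107511472, + strand: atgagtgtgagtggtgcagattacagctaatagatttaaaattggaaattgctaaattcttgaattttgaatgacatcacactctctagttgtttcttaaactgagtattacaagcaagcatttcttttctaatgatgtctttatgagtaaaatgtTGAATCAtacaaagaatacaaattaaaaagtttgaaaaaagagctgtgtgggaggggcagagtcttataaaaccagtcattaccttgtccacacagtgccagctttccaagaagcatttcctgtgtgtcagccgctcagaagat
F3 promoter, chr3:121723287-121723586, + strand: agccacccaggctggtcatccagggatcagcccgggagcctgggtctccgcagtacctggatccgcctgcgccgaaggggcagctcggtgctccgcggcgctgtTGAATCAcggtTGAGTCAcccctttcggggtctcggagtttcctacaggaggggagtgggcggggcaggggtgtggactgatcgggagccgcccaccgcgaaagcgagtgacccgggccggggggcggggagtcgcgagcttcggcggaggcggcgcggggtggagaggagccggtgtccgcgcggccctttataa
Plaur promoter, chr7:24462233-24462532, + strand: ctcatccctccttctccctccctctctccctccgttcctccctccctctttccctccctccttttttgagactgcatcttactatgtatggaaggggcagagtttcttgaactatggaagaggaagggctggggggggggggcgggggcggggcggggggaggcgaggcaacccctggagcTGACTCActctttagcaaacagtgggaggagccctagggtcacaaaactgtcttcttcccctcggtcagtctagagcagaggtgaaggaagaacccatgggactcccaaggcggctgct

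The AP-1 letters began 94 bases before the start in *Serpinb2* and 69 bases before it in *Plaur*, and *F3* had them at 146 and at 135 bases before its start. A second *Serpinb2* start, with its window at chr1:107511260-107511559, holds the same letters at 181 bases before. The windows of *Serpine2* and *Serpinf1* did not hold these letters. The NF-kB motif, searched by name, was in 0 of the 5 genes and in 4.51% of all windows. The SMAD letters CAGACA were in the *Serpinf1* window alone among the members and in 21.0% of all windows, and the STAT letters TTCNNNGAA were in *Serpinb2* alone and in 8.30%. The GC box letters GGGCGG were in *F3*, *Plaur* and *Serpine2* and in 35.7% of all windows, and the TATA letters TATAAA were in *Serpinb2* and *F3* and in 13.6%. In the *Serpinb2* window shown they began 29 bases before the start. The *F3* match was on the opposite strand and lay 43 bases after the start, so it is not a TATA box ahead of it. A match describes letters in a window and was not tested against any binding data.

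Of the 8 genes, 4 were called in MEFs treated by TNFα and 3 in MEFs treated by TGFß1, while none was called with IL1β or IL6/sIL6Rα. With TNFα, *Serpinb2*, *Thbd* and *Plat* rose and *F3* fell. With TGFß1, *Plat* and *Plaur* rose and *Serpine2* fell. *Plat* was the single gene called with both cytokines in the model without slide. Among all tested probes, 10.0% were called with TNFα, 17.9% with TGFß1, 0.232% with IL1β and 0.0580% with IL6/sIL6Rα. These counts are from the fit that treats arrays as unpaired. With arrays paired by label number, 6 of the 8 genes were called with TNFα and 3 with TGFß1. Over all 29334 tested probes that fit called 3830 and 5951. Again none of the 8 genes was called with IL1β or IL6/sIL6Rα.

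**Figure D1:**
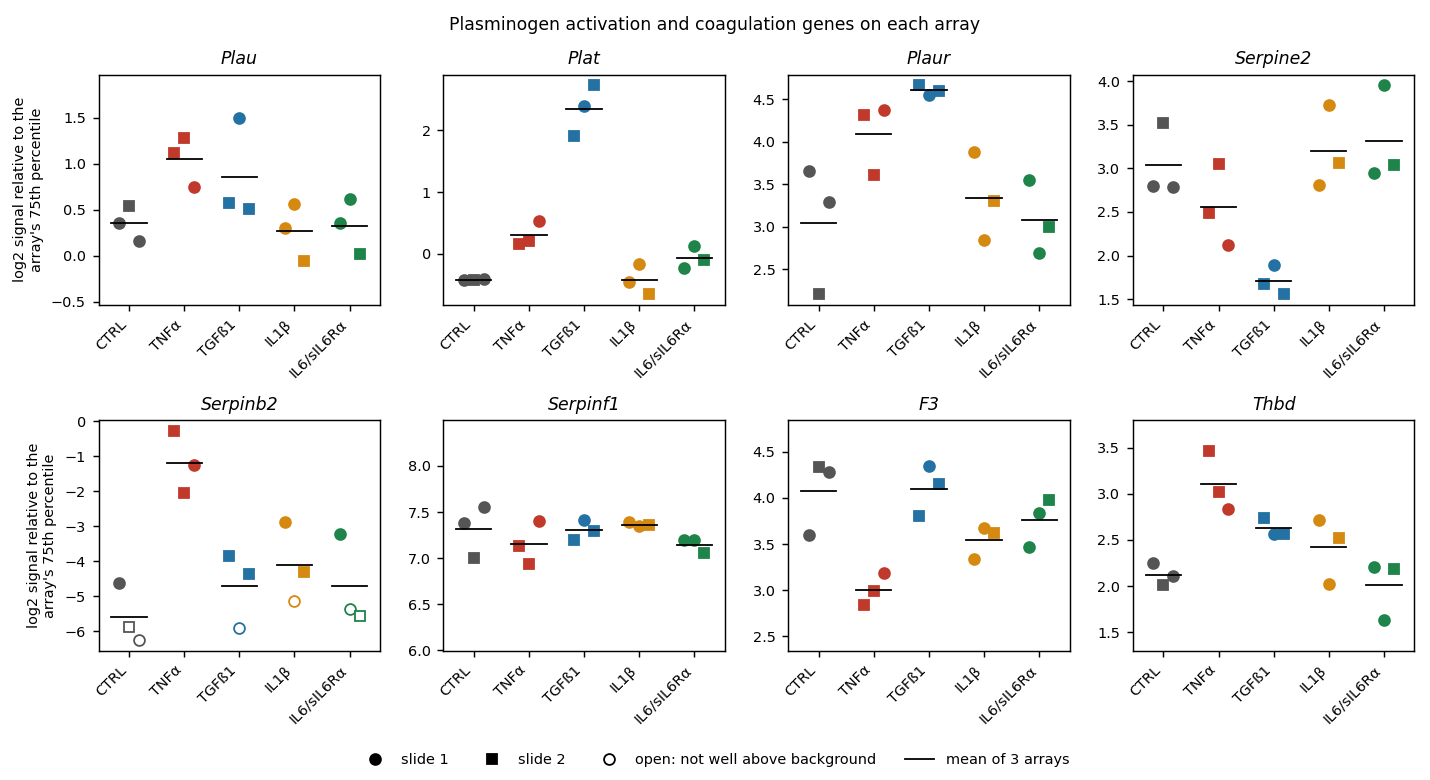
Level of each gene on each of the 15 arrays (y axis, log2 signal relative to the array's 75th percentile) by group (x axis), with circles for slide 1, squares for slide 2, open symbols for values not well above background and a line at the mean of 3 arrays. *Serpinb2* stands apart in TNFα, *Plat* and *Serpine2* stand apart in TGFß1, and *Serpinf1* lies between 6.94 and 7.55 throughout.

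*Plat* (probe A_52_P409833, NM_008872) was the activator called against CTRL. Its level was -0.42, -0.43 and -0.42 on the CTRL arrays 1, 6 and 11, numbered as in the labels. It was 1.91, 2.40 and 2.74 on the TGFß1 arrays 2, 7 and 12, and 0.16, 0.20 and 0.53 on the TNFα arrays 4, 9 and 14. All 3 TGFß1 arrays lay above all 3 TNFα arrays, which in turn lay above every CTRL array. The IL1β arrays 5, 10 and 15 read -0.47, -0.16 and -0.66, around the CTRL values. The IL6/sIL6Rα arrays 3, 8 and 13 read -0.23, 0.12 and -0.11, just above them.

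TGFß1 raised *Plat* by 2.77 on the log2 scale (SE 0.20, 6.83-fold, q = 2.81e-06 by limma, n = 3 a group), with 2.82 on slide 1 and 2.75 on slide 2. TNFα raised it by 0.72 (SE 0.20, 1.65-fold, q = 0.0322), with 0.95 and 0.61 within the slides. The TNFα call was lost without any 1 of the CTRL arrays 1, 6 and 11 or of the TNFα arrays 4, 9 and 14, at q = 0.0617 to 0.110, although the difference stayed between 0.60 and 0.79. It was also lost with median centring (0.62, q = 0.192), with normexp background correction (0.59, q = 0.0543) and with no filter on dim probes (q = 0.0796). Set directly against each other, the level in TGFß1 was above that in TNFα by 2.05 on the log2 scale (4.15-fold, q = 1.81e-05).

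*Plau* was not called in any comparison with CTRL. Its brighter probe (A_55_P2842483, NM_008873) read 0.36, 0.54 and 0.16 in CTRL, 1.11, 1.28 and 0.75 in TNFα and 0.57, 1.49 and 0.51 in TGFß1. Every TNFα array was above every CTRL array, whereas TGFß1 overlapped CTRL and its array 7 was far above its other two. The IL1β arrays ran from -0.05 to 0.57 and the IL6/sIL6Rα arrays from 0.01 to 0.61, across the CTRL range. The difference was 0.69 with TNFα (SE 0.27, 1.62-fold, q = 0.114) and 0.51 with TGFß1 (SE 0.27, 1.42-fold, q = 0.191). The second probe (A_51_P305311) was dim, well above background on 2 of 3 CTRL arrays, and gave 0.79 (q = 0.189) and 0.70 (q = 0.184).

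The TNFα difference of *Plau* was 0.49 on slide 1 and 0.66 on slide 2. The arrays, numbered 1 to 15 in the labels, were split here by number into 3 runs of 5 that each hold all groups. The labels do not name such runs, and arrays of a run deviated together once slide was taken out. With slide and run both in the model, *Plau* was called in TNFα (0.75, q = 0.00101), as it was with run alone (0.69, q = 0.00557) and without the TGFß1 array 7 (q = 0.0478). The TGFß1 difference was 1.23 on slide 1 and 0.00 on slide 2.

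*Plaur* (A_52_P681310, NM_011113), the urokinase receptor, was higher with TGFß1 on every array. In CTRL it read 3.65, 2.21 and 3.29. In TGFß1 it read 4.67, 4.55 and 4.59, a range of little more than 0.1 that lay above all CTRL arrays. In TNFα it read 4.31, 3.61 and 4.37, and the lowest of these was below the highest CTRL array, so those groups overlapped. In IL1β it ran from 2.84 to 3.88 and in IL6/sIL6Rα from 2.70 to 3.55, both across the CTRL range.

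TGFß1 raised *Plaur* by 1.55 (SE 0.37, 2.93-fold, q = 0.00935), with 1.08 on slide 1 and 2.42 on slide 2. The TNFα difference was 1.05 (SE 0.37, 2.07-fold) and missed the threshold at q = 0.0875. It was called with slide in the model (1.17, q = 0.0392), with slide and run (1.18, q = 7.08e-05), with run alone (q = 0.00694) and without the CTRL array 1 (1.35, q = 0.0456). Within slides it was 0.90 and 1.75. Levels in TGFß1 and TNFα differed by 0.51 on the log2 scale, with a 95% interval of the TNFα value minus the TGFß1 value from -1.31 to 0.29 (q = 0.440). It was -0.18 and -0.67 within the slides, and with slide and run in the model q was 0.00614 at a fold of 1.42, under the fold threshold.

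*Serpine2* (A_55_P2902822, NM_009255), a serpin that inhibits thrombin, urokinase and tissue plasminogen activator, fell with TGFß1. It read 2.80, 3.52 and 2.79 in CTRL and 1.68, 1.89 and 1.55 in TGFß1, where all 3 arrays were below every other array of the series. In TNFα it read 2.49, 3.05 and 2.12, overlapping CTRL. In IL1β it read 2.81, 3.73 and 3.07, and in IL6/sIL6Rα 2.95, 3.96 and 3.03, with 1 array of each above the CTRL range.

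TGFß1 lowered *Serpine2* by 2.51-fold (log2 difference -1.33, SE 0.33, q = 0.0120). The size differed between slides, -0.91 on slide 1 and -1.90 on slide 2. Without the CTRL array 6, the highest of its group, the difference was -1.09 and the call was lost at q = 0.0512. With TNFα the difference was -0.48 (q = 0.399), with a 95% interval from -1.20 to 0.23.

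*Serpinb2* (A_51_P101146, NM_011111), an inhibitor of urokinase that is induced by inflammatory stimuli in many cells, rose with TNFα from a dim signal. It read -4.61, -5.87 and -6.25 in CTRL, where 1 of 3 arrays was well above background. In TNFα it read -0.27, -2.05 and -1.25, well above background on all 3, and each of these was above every array of the other groups. In TGFß1 it read -3.84, -5.92 and -4.37, with 2 arrays well above background. In IL1β it read -2.89, -5.14 and -4.30, also with 2, and in IL6/sIL6Rα -3.21, -5.35 and -5.55, with 1.

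TNFα raised *Serpinb2* by 4.39 on the log2 scale (SE 0.78, q = 0.00305 by limma), with 4.18 on slide 1 and 4.71 on slide 2. The probe was tested because it was well above background throughout the TNFα group alone. Its q-values and its place in the counts of calls therefore depend on the group where it was high. With no filter on dim probes, *Serpinb2* was also called in TNFα against CTRL. No fold is given, since 2 of the 3 CTRL signals were not well above background. With normexp background correction, which pulls dim signals together, the difference was 1.79 on the log2 scale (q = 0.000711). No other comparison of this gene with CTRL was called. The IL1β difference was 1.47, with a 95% interval from -0.24 to 3.17 (q = 1.00).

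*Serpinf1* (A_51_P517075, NM_011340), which encodes pigment epithelium-derived factor, a serpin without inhibitor activity that restrains vessel growth, was not called in any comparison. The level was 7.38, 7.00 and 7.55 in CTRL. It ran from 6.94 to 7.41 in TNFα, from 7.20 to 7.41 in TGFß1, from 7.34 to 7.39 in IL1β and from 7.05 to 7.20 in IL6/sIL6Rα. No treated group left the CTRL range upwards or downwards as a whole. The 95% interval was -0.48 to 0.17 for TNFα and -0.34 to 0.32 for TGFß1. The other 2 probes of the gene gave -0.26 (q = 0.509) and -0.25 (q = 0.492) with TNFα and were called in no comparison either.

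*F3* (A_55_P1971889, NM_010171), tissue factor, fell with TNFα. It read 3.60, 4.34 and 4.28 in CTRL and 2.84, 2.99 and 3.19 in TNFα, where all 3 arrays were below every array of the other groups. In TGFß1 it read 3.81, 4.35 and 4.15, within or just above the CTRL range. In IL1β it read 3.34, 3.67 and 3.62 and in IL6/sIL6Rα 3.46, 3.84 and 3.98, with the lowest array of each below CTRL.

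TNFα lowered *F3* by 2.10-fold (log2 difference -1.07, SE 0.22, q = 0.00650), with -0.75 on slide 1 and -1.43 on slide 2. The TGFß1 interval ran from -0.44 to 0.50 (q = 0.938). With IL1β the difference was -0.53 (SE 0.22, q = 1.00), and *F3* was the sole member with an unadjusted limma p below 0.05 in that comparison in the model without blocks.

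*Thbd* (A_51_P291417, NM_009378), thrombomodulin, rose with TNFα. It read 2.25, 2.01 and 2.11 in CTRL and 3.46, 3.03 and 2.83 in TNFα, where all 3 arrays were above every array of the other groups. In TGFß1 it read 2.74, 2.57 and 2.57, also above all CTRL arrays, and in IL1β 2.71, 2.03 and 2.52. In IL6/sIL6Rα it read 2.20, 1.63 and 2.18, with 1 array below the CTRL range.

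TNFα raised *Thbd* by 0.98 on the log2 scale (SE 0.21, 1.98-fold, q = 0.00902), with 0.65 on slide 1 and 1.24 on slide 2. The TGFß1 difference was 0.50 (SE 0.21, 1.41-fold) and did not pass at q = 0.107. TNFα and TGFß1 levels of *Thbd* differed by 0.48, with q = 0.162.

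**Figure D2:**
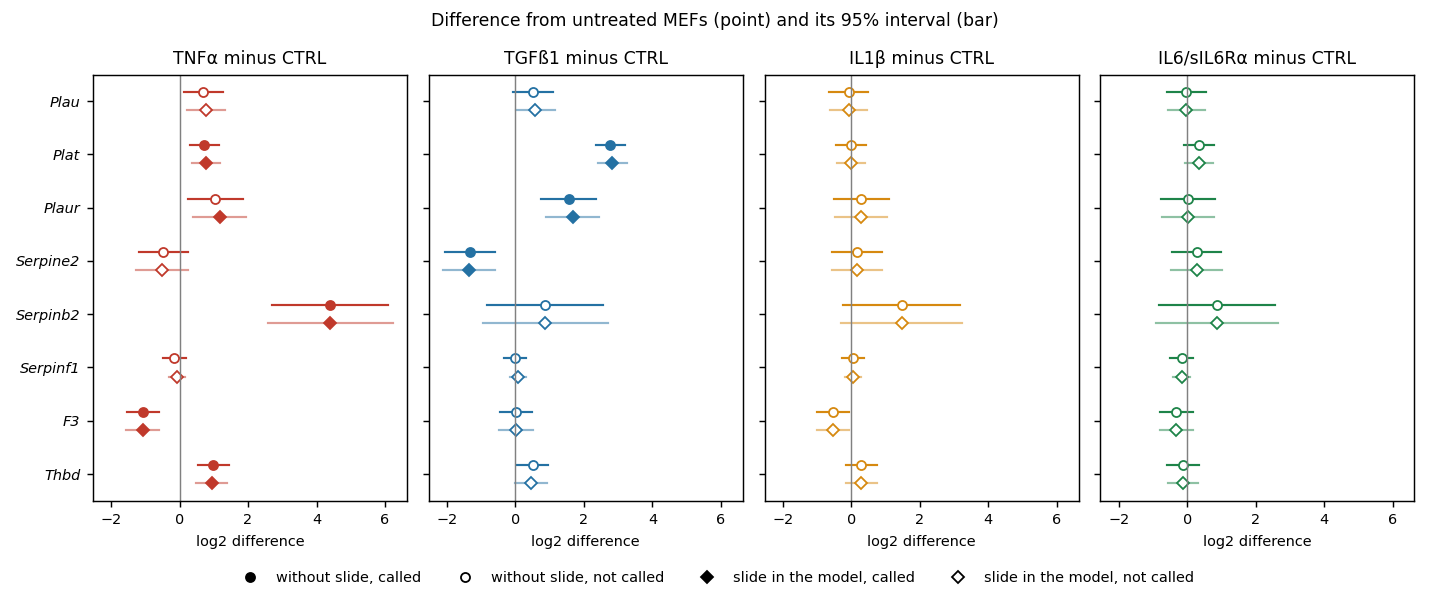
Log2 difference of each treated group from CTRL (x axis) for the 8 genes (y axis), with circles for the model without slide, diamonds for the model with slide, filled symbols for called differences and bars for the 95% interval. With TNFα 4 genes are filled without slide and 5 with it, the fifth being *Plaur*, and with TGFß1 the same 3 genes are filled in both.

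**Figure D3:**
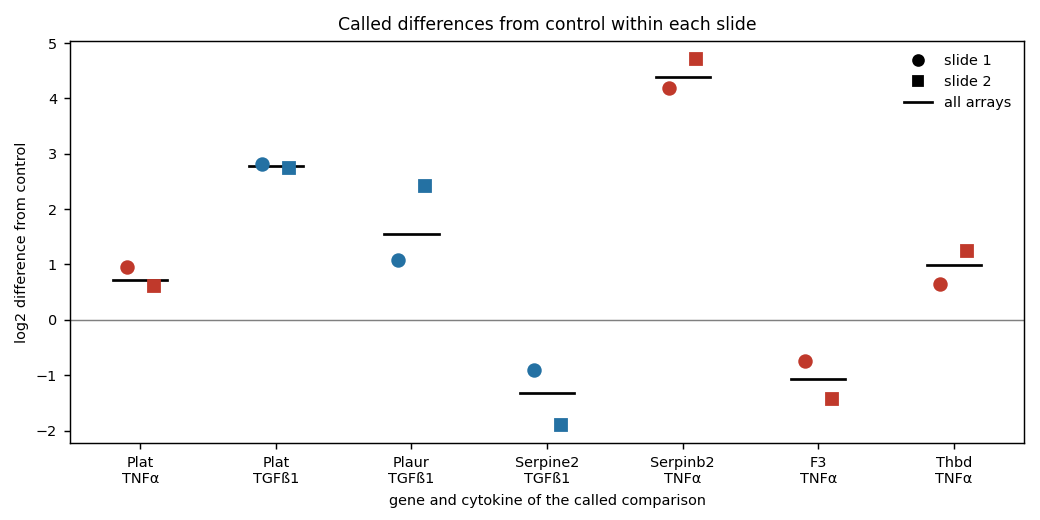
Log2 difference from CTRL (y axis) of the 7 called comparisons (x axis), computed within slide 1 (circles), within slide 2 (squares) and over all arrays (lines). Each pair of points lies on 1 side of 0, as it must for groups that do not overlap. The points are farthest apart for *Plaur* with TGFß1, at 1.08 and 2.42.

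By count, the 4 genes called with TNFα were 3 that rose and 1 that fell, and the median difference over the 8 genes was 0.71 on the log2 scale, beside 0.04 over all tested probes. With TGFß1, 2 rose and 1 fell, with a median of 0.50 beside 0.07. The medians were 0.11 with IL1β and 0.00 with IL6/sIL6Rα, against 0.00 in both over all probes. At an unadjusted limma p below 0.05, 1 of 8 genes passed with IL1β and 0 of 8 with IL6/sIL6Rα, and with slide and run in the model 4 and 3 did. Of these, *F3* with IL1β also reached q = 0.0467, at a fold of 1.45, under the fold threshold, so both counts of calls stayed at 0, against 1.10% and 0.787% of all tested probes. With slide in the model 5 genes were called with TNFα, against 12.0% of all tested probes. With slide and run the count was 6, against 15.4%, and the 3 genes called with TGFß1 were also called in both models, against 20.3% with slide and 22.7% with slide and run. The comparisons share the CTRL arrays.

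The cytokines were also compared directly, which asks whether the level of a gene differed between 2 of them. Where IL1β or IL6/sIL6Rα is set against TNFα or TGFß1, a difference in exposure time cannot be told apart from one between cytokines. TNFα against TGFß1 gave 3 calls of 8 (11.8% of all tested probes): *Serpinb2* was higher in TNFα by 3.52 on the log2 scale (q = 0.00834), and *Plat* and *F3* were lower, *F3* by 2.14-fold (log2 difference -1.10, q = 0.00392). Calls in this comparison were kept with slide in the model and without any 1 array. With slide and run in the model, *Serpine2* was also called, higher in TNFα by 0.85 (q = 0.000621), against 16.1% of all tested probes. Over the 6 comparisons between cytokines, all 13 calls were between groups that did not overlap. Their direction had to be the same within both slides, so it adds no support. The sizes within slides differed by more than 1.5 times in 2 of the 13, *Serpinb2* between TNFα and TGFß1 (4.67 and 2.95) and *F3* between TNFα and IL6/sIL6Rα (-0.46 and -1.07).

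TNFα against IL6/sIL6Rα gave 3 calls (8.59% of all tested probes). *Serpinb2* was higher in TNFα by 3.52 (q = 0.0123) and *Thbd* by 1.10 (q = 0.00507), while *F3* was lower by 0.76 (log2 difference -0.76, q = 0.0427). The *Serpinb2* call was lost without the IL6/sIL6Rα array 8 (q = 0.0604) or the TNFα array 4 (q = 0.0627). The *F3* call was lost without any 1 of 9 arrays: CTRL 11, IL1β 10 or 15, IL6/sIL6Rα 8 or 13, TGFß1 12, or TNFα 4, 9 or 14, with the difference between -0.85 and -0.65 and q up to 0.162.

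TNFα against IL1β gave 1 call (4.69% of all tested probes), *Serpinb2*, higher in TNFα by 2.92 on the log2 scale at q = 0.0499, and it was lost in 12 of 15 fits without 1 array, being kept without the IL1β array 5, the IL6/sIL6Rα array 3 or the TGFß1 array 7. In the same comparison *Plat* missed the threshold at q = 0.0535 (difference 0.73) and was called with slide in the model (0.78, q = 0.0261). With slide and run in the model 6 members were called against IL1β (*Plat*, *Plau*, *Plaur*, *Serpinb2*, *Serpine2* and *Thbd*), beside 10.5% of all tested probes. Against IL6/sIL6Rα 6 were called as well, with *F3* in place of *Plat*, beside 14.1%.

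TGFß1 against IL1β (16.9% of all tested probes) and TGFß1 against IL6/sIL6Rα (16.3%) each gave the 3 calls seen against CTRL in the model without blocks. *Plau* was also called against IL1β with slide and run in the model, higher in TGFß1 by 0.64 (q = 0.00152), where the shares of all tested probes were 22.3% and 21.6%. With run alone *Thbd* was called against IL6/sIL6Rα, higher by 0.62 (q = 0.0109). *Plat* was higher in TGFß1 by 2.78 (q = 2.37e-06) and 2.42 (q = 6.27e-06), and *Plaur* by 1.26 (q = 0.0271) and 1.52 (q = 0.0111). *Serpine2* was 2.82-fold (q = 0.00676) and 3.04-fold (q = 0.00461) lower in TGFß1. The *Plaur* call against IL1β was lost without the IL1β array 10 (1.01, q = 0.126) or 15 (q = 0.0606) or the TGFß1 array 2 (q = 0.0775), 7 (q = 0.0595) or 12 (q = 0.0680), and that against IL6/sIL6Rα without the IL6/sIL6Rα array 8 (q = 0.0568). IL1β against IL6/sIL6Rα gave 0 calls among the members, 0 of 8 also at an unadjusted limma p below 0.05, and 0.399% of all tested probes. In the model with slide and run, 3 of 8 had such a p and 0 were called, against 1.77% of all tested probes.

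**Figure D4:**
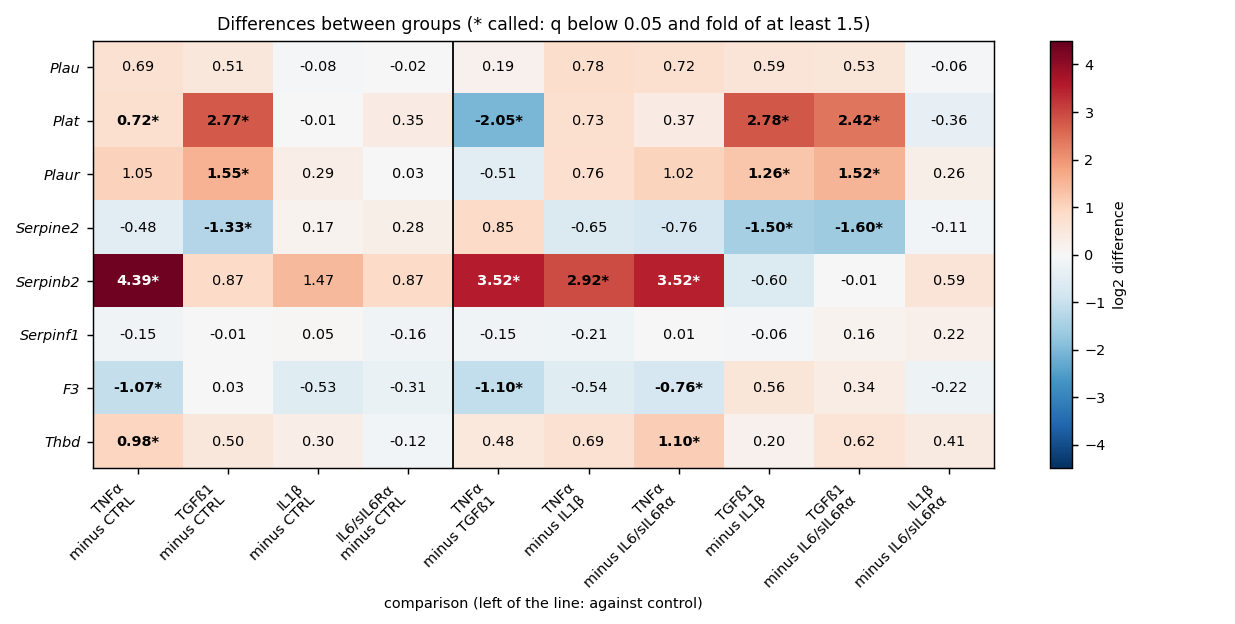
Log2 difference (colour and printed value) of the 8 genes (rows) in the 10 comparisons (columns), with those left of the line made against CTRL and stars on called differences. The 13 stars right of the line fall on *Plat*, *Plaur*, *Serpine2*, *Serpinb2*, *F3* and *Thbd*, and none falls on *Plau* or *Serpinf1*.

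Ordered by group mean, *Plat* ran TGFß1, TNFα, IL6/sIL6Rα, CTRL and IL1β, and only the step from TGFß1 to TNFα was called. *Serpinb2* ran TNFα, IL1β, IL6/sIL6Rα, TGFß1 and CTRL, and only its first step was called. No step between neighbours was called in the other 6 genes. TGFß1 had the highest mean of *Plaur* and *F3* and the lowest of *Serpine2*. TNFα had the highest mean of *Plau* and *Thbd* and the lowest of *F3*.

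Other genes of plasminogen activation and its inhibition were read from a list of 13, of which 7 were tested. With TGFß1, 2 of the 7 were called, 1 higher and 1 lower, against 17.9% of all tested probes. The higher gene, *Tfpi2*, enters this count through a probe tested only because of the TGFß1 group, where it was high. The median over the 7 was -0.06 and did not change with *Tfpi2* at its bound.

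*Tfpi2*, a Kunitz-type inhibitor of plasmin, was not well above background on any CTRL array and was so on all 3 TGFß1 arrays, where it read -1.84, -1.29 and -1.91. It was at least 8.79-fold higher in TGFß1 than in CTRL (q = 0.000287 by limma, for the measured difference and not for the bound). Its probe was tested because it was well above background throughout the TGFß1 group alone, the group where it was high. The bound sets the TGFß1 mean against the lowest signal well above background on each CTRL array, or the probe's own where that was higher. *Plgrkt*, a plasminogen receptor, fell with TGFß1 by 1.59-fold (log2 difference -0.67, q = 0.0131). It was -0.57 on slide 1 and -0.53 on slide 2. Its difference was -0.56 with slide in the model, under the fold threshold, and its call was lost without the CTRL array 11 (q = 0.0535) or the TGFß1 array 2 (q = 0.0546) or 12 (q = 0.0521).

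With TNFα none of the 7 was called by limma, against 10.0% of all tested probes, and 0 of 7 with slide in the model, against 12.0%. With so few genes, 0 calls cannot be told apart from such shares. The median was -0.47 beside 0.04 over all tested probes. With slide and run in the model, *Serpini1*, a serpin of neurons that inhibits tissue plasminogen activator, was called with TNFα (-0.92, q = 0.000747) and with TGFß1 (-0.69, q = 0.00239). The shares of all tested probes there were 15.4% and 22.7%. None was called with IL1β or IL6/sIL6Rα, in any of these models, where at most 1.10% and 0.787% of all tested probes were called. Plasminogen itself (*Plg*), *Serpinf2*, *Serpina5*, *Vtn* and *Klkb1* were well above background on 0 of 15 arrays.

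Of 28 further coagulation genes, 9 were tested. The genes for prothrombin (*F2*), factors VII and X (*F7*, *F10*) and the fibrinogen chains (*Fga*, *Fgb*, *Fgg*), which the liver secretes into plasma, were well above background on 0 of 15 arrays. With TNFα, 5 of the 9 were called, 1 higher and 4 lower, against 10.0% of all tested probes, with a median of -0.53. With TGFß1, 4 were called, 2 higher and 2 lower, against 17.9% of all tested probes. Among the higher genes, *F13a1* enters this count through a probe tested only because of the TGFß1 group, where it was high. The median was -0.05 and did not change with *F13a1* at its bound. With IL1β and IL6/sIL6Rα none was called by limma, against 0.232% and 0.0580% of all tested probes.

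*Procr*, the receptor that presents protein C to the thrombin and thrombomodulin complex, rose with both. It read -1.91, -2.12 and -2.55 in CTRL, -1.01, -0.95 and -1.34 in TNFα and -0.75, -0.61 and -0.97 in TGFß1. The 2 treated groups lay wholly above CTRL, by 1.09 (SE 0.21, 2.13-fold, q = 0.00420) and 1.41 (SE 0.21, 2.66-fold, q = 0.000443). Within slides these were 0.89 and 1.14 for TNFα and 1.62 and 1.25 for TGFß1.

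*Pros1*, protein S, the cofactor of activated protein C, fell with both. CTRL arrays read 4.94, 4.90 and 4.95, TNFα arrays 3.75, 4.07 and 4.21, and TGFß1 arrays 3.83, 4.58 and 3.96, so both treated groups lay below CTRL. The log2 differences were -0.92 (q = 0.0342) and -0.81 (q = 0.0374). Within slides they were -0.73 and -0.98 with TNFα and -0.36 and -1.004 with TGFß1. The second probe of the gene gave -0.58 (q = 0.0999) and -0.50 (q = 0.104) and was not called.

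Each *Pros1* call was lost without any 1 of the CTRL arrays 1, 6 and 11. The TNFα call was also lost without the TNFα array 4 or 9, with q up to 0.142, and the TGFß1 call without the TGFß1 array 2 or 12, with q up to 0.141. In IL6/sIL6Rα *Pros1* read 5.75, 6.33 and 5.46, above all CTRL arrays. That difference was 0.92 (q = 0.635), and it was called with slide and run in the model (q = 0.00191).

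*F8*, the cofactor of factor IX, fell by 2.28-fold with TNFα (log2 difference -1.19, q = 0.00960) and by 2.17-fold with TGFß1 (-1.12, q = 0.00810). The signal was dim, well above background on 3 CTRL, 1 TNFα and 2 TGFß1 arrays. With normexp background correction the differences were -0.32 in both comparisons (q = 0.0950 with TNFα and 0.0630 with TGFß1), and the TNFα call was lost without the TNFα array 4 (q = 0.0515). Within slides they were -1.48 and -1.13 for TNFα and -0.87 and -1.32 for TGFß1.

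*Gas6*, a vitamin K-dependent ligand of the TAM receptor kinases, read 3.13, 4.52 and 3.27 in CTRL and 1.18, 1.93 and 1.44 in TNFα. It fell with TNFα by 4.35-fold (log2 difference -2.12, SE 0.58, q = 0.0297), with -1.76 on slide 1 and -2.97 on slide 2. The call was lost without the CTRL array 6 (-1.68, q = 0.104) or 11 (q = 0.0547) or the TNFα array 4 (q = 0.113) or 14 (q = 0.0771). With TGFß1 the *Gas6* difference was -1.58 (q = 0.0643), and it was called with slide and run in the model (-1.55, q = 0.000220). *F2r*, the thrombin receptor, fell by 1.52-fold (log2 difference -0.61, q = 0.0380), with -0.77 and -0.31 within slides and -0.52 with slide in the model, under the fold threshold. That call was lost in 8 of the 15 fits without 1 array, namely CTRL 1 or 11, IL1β 15, IL6/sIL6Rα 8, TGFß1 2 or TNFα 4, 9 or 14, with q up to 0.129.

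*F13a1*, the subunit of factor XIII that crosslinks fibrin, was well above background on the 3 TGFß1 arrays alone. Its probe was tested because of those arrays, where it was high. It was at least 1.78-fold higher there than in CTRL. The q-value of 1.74e-06 by limma belongs to the measured log2 difference of 3.08, which rests on CTRL signals not well above background. With normexp background correction the measured log2 difference was 0.58 (q = 0.00135 by limma), under the fold threshold. A second probe of the gene was not among those tested.

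**Figure D5:**
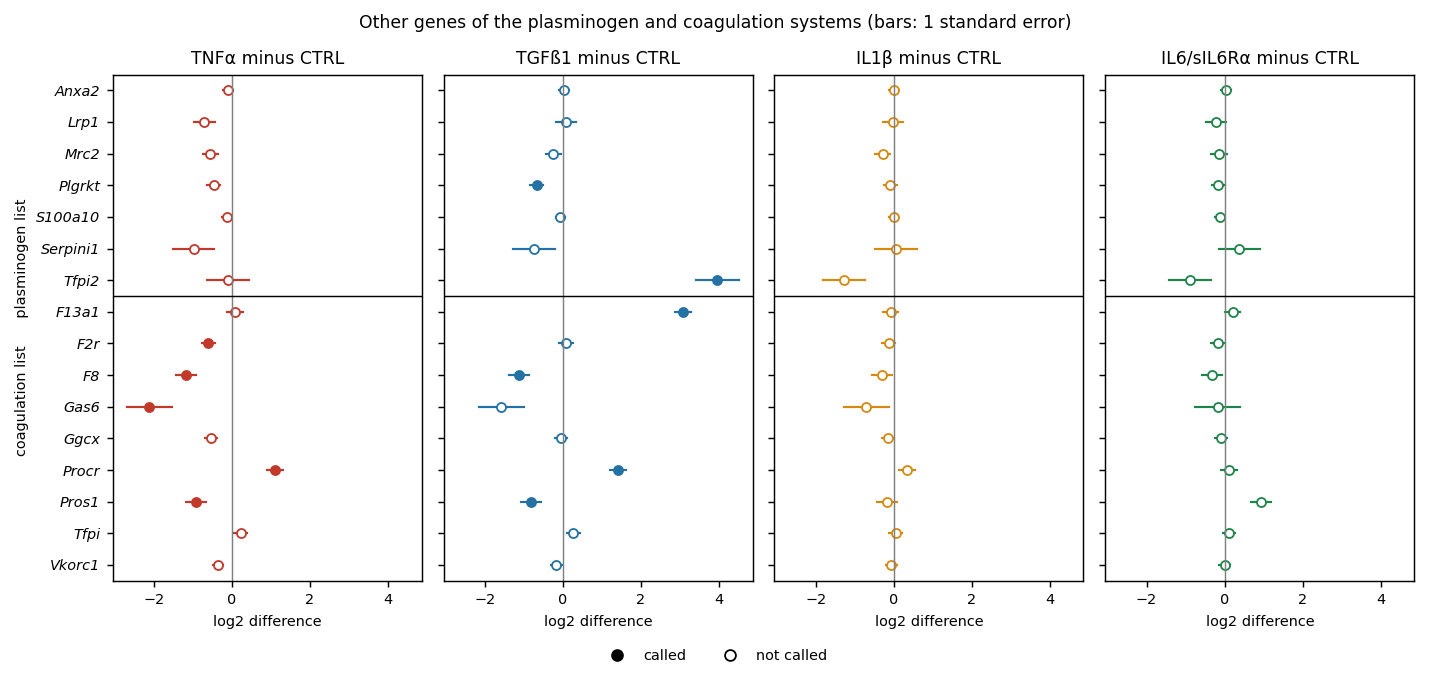
Log2 difference from CTRL (x axis, bars of 1 standard error) of the 7 tested genes of the plasminogen list (above the line) and the 9 of the coagulation list (below it) in the 4 treated groups, with filled points for called differences. *Tfpi2*, *F13a1* and *Procr* lie to the right and *F8*, *Pros1* and *Plgrkt* to the left with TGFß1, *Procr* lies to the right and *Gas6*, *F8*, *Pros1* and *F2r* to the left with TNFα, and no point is filled with IL1β or IL6/sIL6Rα. Points of *Tfpi2* and *F13a1* rest on CTRL signals not well above background.

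Genes whose levels followed each member most closely were taken by Pearson's r over the 15 arrays, among 13479 genes, as a description of arrays that share groups, slides and runs. For *Plat* they were *Acvr1* (0.963), a type I receptor of the TGFß superfamily, *Pxdn* (0.962), a peroxidase of basement membranes, and *Lpin3* (0.961). For *Serpine2* they were *Cyp4v3* (0.983), *Cyp2f2* (0.981) and *Ifitm6* (0.976), and for *Plaur* they were *Rpp40* (0.988), *Uchl5* (0.987) and *Rnmt* (0.985).

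For *Serpinb2* they were *1700012B09Rik* (0.937), *Ptpn22* (0.925) and *Angptl6* (0.923). For *F3* they were *Ldb3* (0.941), *Fam114a1* (0.926) and *Aspn* (0.924), the last a small proteoglycan of the extracellular matrix. For *Thbd* they were *Prmt6* (0.952), *Bcl6b* (0.926) and *Wdr36* (0.923). *Plau* with *Adgrg6* (0.910), *Isoc1* (0.908) and *Clcn5* (0.886), and *Serpinf1* with *Ethe1* (0.909), *Lzts2* (0.905) and *Osgepl1* (0.898), had lower values.

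The cell type was checked by markers. All 8 fibroblast markers were well above background on all arrays. Of 4 endothelial markers, *Cdh5*, *Tek* and *Kdr* were on none, whereas *Pecam1* was on all 15 arrays, at levels from -3.74 to -3.05. These markers touch *Thbd* and *Procr*, genes also known from endothelium. The summed level of the 4, relative to the 75th percentile, was 0.107 to 0.141 in CTRL, 0.124 to 0.141 in TNFα and 0.114 to 0.121 in TGFß1. Of 5 leukocyte markers, *Itgam*, *Csf1r* and *Cd68* were on all arrays and *Ptprc* and *Adgre1* on none, with sums of 10.2 to 21.9 in CTRL, 11.9 to 22.8 in TNFα and 11.9 to 20.9 in TGFß1. None of 5 epithelial markers was on all arrays and 1 was on none. Their sum was 0.110 to 0.237 in CTRL and 0.244 to 0.627 in TGFß1, wholly above CTRL, and 0.0699 to 0.106 in TNFα, wholly below it. Of 3 smooth muscle markers 2 were on all arrays and 1 on none, and their sum overlapped between CTRL (143 to 341) and both TNFα (227 to 396) and TGFß1 (230 to 338). Of 3 adipocyte markers, *Fabp4* and *Pparg* were on all arrays and *Adipoq* on 13. Their sum was 22.8 to 29.5 in CTRL, 6.41 to 8.77 in TNFα and 10.3 to 14.8 in TGFß1, against 23.0 to 25.0 in IL1β and 25.8 to 26.9 in IL6/sIL6Rα, so it was lower in the groups where members were called. The sum over the 8 fibroblast markers was 1700 to 2098 in CTRL and 1088 to 1418 in TNFα, lower there as well, and 1449 to 2013 in TGFß1, overlapping CTRL. The part of these levels in the results was not tested.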

How the data were processed

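Total RNA of 15 cultures was labelled with Cy3 and hybridised to 1-colour Agilent mouse arrays. The authors deposited processed signal intensity values per spot, made with Agilent Feature Extraction 10.7.3.1 per the labels. They are background-subtracted and not normalized between arrays, and the deposited series table holds the same intensity values (largest difference 0). For this report, control spots and spots marked as outliers were left out, spots of a probe were averaged, and log2 intensity minus the log2 of each array's 75th percentile was used. Tested were the probes that the scanner software marked as well above background throughout 1 group or more (29334 of 56605), with limma 3.58.1 (lmFit, eBayes, two-sided) in R 4.3.3 on all 15 arrays, with no covariate. Calls needed q below 0.05 and a fold-change of at least 1.5. The precision of a value is limited by 3 arrays a group. Fits were tested on simulated data.

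Arrays numbered 1 to 5, 6 to 10 and 11 to 15 were taken here as 3 runs, which the labels do not name. With group means removed, 12 of 30 same-run pairs and 28 of 60 different-run pairs correlated above 0.1, so runs did not show there. With slide removed as well, all 30 same-run pairs did (0.11 to 0.67), against 2 of 60 different-run pairs. Run was therefore fitted as a replicate block, with slide, as an alternative.

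The members and the lists were chosen with earlier results of these data known. The genes named are the 8 members, genes of both lists called against CTRL, and the 3 genes most correlated with each member; undetected list genes and those called with blocks were named after their values were seen. Promoter windows are RefSeq's on GRCm38.p6, while the array design was annotated on another build, so no other coordinates are given. A gene of the plasminogen list is not reported here.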

Additional observations from a re-analysis of the deposited data

How the results depend on the processing

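Tried were quantile normalization, median centring, normexp background correction with an offset of 50, no filter and a stricter filter on dim probes, outlier spots kept, slide, run or both as blocks, fits on the groups compared with CTRL alone, no fold criterion and one of 2, any probe of a gene, and leaving out 1 array. Of the 45 called differences of the members and both lists, 0 changed sign, whereas 73 of the 195 not called did so in 1 setting or more. Called differences were picked for their size on these same arrays, so a kept sign adds little support. Members called with TNFα numbered 4, against 10.0% of all tested probes. With a fold criterion of 2 they numbered 2, *F3* and *Serpinb2*, since *Plat* and *Thbd* lay under it. The share of all tested probes at that criterion is not given, so this drop cannot be read as particular to the members. Members called between cytokines, summed over the 6 comparisons, numbered 13, against 23 with slide and the replicate block (runs) and 24 with the replicate block alone. Calls over all tested probes also rose in each of the 6 comparisons. For TNFα against IL1β they went from 1377 to 3081 with both blocks and 2390 with the replicate block alone. For TGFß1 against IL1β they went from 4963 to 6535 and 5699. The cause was not tested. Leaving out 1 array gave 3 to 5 members with TNFα, 2 to 3 with TGFß1, 0 to 0 with IL1β and with IL6/sIL6Rα, and 9 to 13 between cytokines. Over all probes such fits called 1847 to 2990 with TNFα, 3986 to 5384 with TGFß1, 40 to 80 with IL1β and 4 to 22 with IL6/sIL6Rα. For TNFα against TGFß1 they called 2794 to 3616. Refits were also counted, 1 for each difference in each setting, over only a part of the 45 called and 195 not called differences. Of the refits with all arrays, 414 stayed on their side of the threshold, 32 passed newly and 30 were lost. With 1 array left out these were 590, 8 and 62. The stricter filter gave no value for *Serpinb2*, *Tfpi2*, *F8* or *F13a1*. The replicate block with slide changed the calls against CTRL of *Plau*, *Plaur*, *F2r*, *Plgrkt*, *Serpini1*, *Gas6* and *Pros1* as given above, and no other. Beside the losses given above, calls were lost with median centring (*Pros1*, *Plgrkt*, *F2r*, and *Plaur* and *Serpinb2* against IL1β), with no filter on dim probes (*Pros1*, *Gas6*, *F2r*, *F3* against IL6/sIL6Rα, *Plaur* and *Serpinb2* against IL1β), and with fits on the groups compared alone (*F8*, *F2r* and *Plgrkt* against CTRL, *F3* against IL6/sIL6Rα, *Serpinb2* against IL1β). The *Serpinb2* call against IL1β was also lost with quantile normalization (q = 0.0556) and with outlier spots kept (q = 0.0503).

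Over all probes, with TNFα, 2948 probes were called, against 4522 with slide and run as blocks and 1847 without the TNFα array 4. With TGFß1, 5250 were called, against 3472 with normexp correction. With IL1β, 68 were called, against 323 with both blocks, 20 with the CTRL and IL1β arrays alone and 40 without the CTRL array 1. With IL6/sIL6Rα, 17 were called, against 231, 0 and 4 in the same 3 settings.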
